A study of Mus musculus with 18 samples.

Results

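The Notch pathway was followed through 8 of its genes in bulk RNA sequencing of sorted endothelial cells (ECs), which form the inner lining of vessels. The genes were taken by name: the ligands Dll4, Jag1 and Jag2, the receptors Notch1 and Notch4, and the targets Hey1, Hes1 and Nrarp. All 8 were among the 16248 genes listed in the table, and all 8 passed the filter on low values that left 13983 genes for testing.

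Notch signalling runs between touching cells. A Delta-like or Jagged ligand on the sending cell binds a Notch receptor on its neighbour, the receptor is cut, and its inner part enters the nucleus, where it joins the DNA-binding protein RBPJ and turns on target genes. In vessels, Dll4 is known for restraining sprouting by neighbouring ECs, Jag1 for counteracting Dll4, and the pathway as a whole for the arterial state. Hey1 and Hes1 encode repressors of transcription, and Nrarp encodes a feedback inhibitor of the pathway.

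ECs came from 3 tissues of mice on the FVB background, and each tissue was collected 3 h after an injection of phosphate-buffered saline (PBS) or of cGAMP, the cyclic dinucleotide ligand of STING, a protein of innate DNA sensing. Normal ECs were taken out of mammary fat pads of mice labelled wild type. MMTV-PyMT ECs came from breast tumours that arise on their own in mice whose mammary epithelium expresses the polyoma middle T oncogene under a mammary tumour virus promoter. Implanted ECs came from tumours grown from cultured MMTV-PyMT tumour cells that had been placed with Matrigel in the fat pad of FVB mice, and the labels give these hosts as wild type. Every group held 3 libraries, 18 in all, numbered 1 to 3 below, and was sorted as live CD45-negative, CD31-positive cells after enrichment on CD31 beads. Ages were not among the labels, and which library came from which of the independent experiments was not stated, so p-values measure the spread between these libraries. The 6 columns used as normal ECs were headed by treatment and number alone, and fat pad was assigned to them by elimination.

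By GENCODE M21, on the mm10 build with positions counted from 1, 4 members lie on chromosome 2. They are Nrarp (chr2:25180758-25183339, plus strand), Notch1 (chr2:26457903-26516663, minus strand), Dll4 (chr2:119325784-119335962, plus strand) and Jag1 (chr2:137081456-137116644, minus strand). Hey1 lies at chr3:8663359-8667256 on the minus strand and Jag2 at chr12:112907819-112929776 on the minus strand. Hes1 lies at chr16:30064384-30067796 and Notch4 at chr17:34564268-34588503, both on the plus strand. All 8 are protein-coding, and each value counts reads over the exons of a gene. Dll4 overlaps Gm14207, which is transcribed from the opposite strand and was also listed, and Notch1, Notch4, Jag2 and Nrarp overlap short or non-coding genes that were not listed. Neither the strand setting of the counting nor its handling of reads that overlap another gene was stated. The values of these 5 genes may therefore include reads of such partners or lack reads shared with them.

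RefSeq promoter windows (GRCm38.p6) were read for Dll4, Jag1, Jag2, Notch1, Notch4 and Nrarp. Hey1 and Hes1 had no window in the set used, so Nrarp was the only target searched. The windows of Dll4, Notch4 and Nrarp are shown because these 3 members were higher in implanted ECs than in both other tissues under PBS. Capitals mark a match to the kappaB motif, the motif of the NF-kappaB family of transcription factors, here found on the minus strand at −109 from the RefSeq start in Dll4, at −168 in Notch4 and at −221 in Nrarp. The windows are plus-strand sequence up to the base before the GENCODE start, at chr2:119325534-119325783 for Dll4, chr17:34564045-34564267 for Notch4 and chr2:25180508-25180757 for Nrarp.
Dll4: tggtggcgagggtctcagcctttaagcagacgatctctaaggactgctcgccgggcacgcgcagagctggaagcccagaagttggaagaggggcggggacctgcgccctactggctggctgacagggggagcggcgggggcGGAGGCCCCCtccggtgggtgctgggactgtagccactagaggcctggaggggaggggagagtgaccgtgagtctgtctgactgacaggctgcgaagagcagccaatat
Notch4: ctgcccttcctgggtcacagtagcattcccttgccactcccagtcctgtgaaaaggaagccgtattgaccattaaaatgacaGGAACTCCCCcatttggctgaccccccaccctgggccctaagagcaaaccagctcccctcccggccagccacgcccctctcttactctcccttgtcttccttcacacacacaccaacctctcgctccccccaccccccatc
Nrarp: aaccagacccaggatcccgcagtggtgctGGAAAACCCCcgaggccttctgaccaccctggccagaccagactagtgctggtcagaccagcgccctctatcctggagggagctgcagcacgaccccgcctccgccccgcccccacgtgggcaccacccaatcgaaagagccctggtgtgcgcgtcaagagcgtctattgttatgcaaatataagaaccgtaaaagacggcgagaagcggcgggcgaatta
Over the 250 bases before the RefSeq start, searched on both strands, 3 of the 6 members held a kappaB match, against 7.25% of 32851 promoters of the same length. The RBPJ core TGGGAA was in 0 of the 6 and in 21.6% of all promoters, and the interferon-stimulated response element (GAAA, any 2 bases, GAAA) was in 0 of the 6 and in 2.98% of all promoters. None of these motifs overlapped another in the members. A match is a run of letters and not a site shown to be used, and no match says only that these letters are not in this window. The motifs were chosen with earlier results of these data known. G and C made up 57.2 to 87.2% of the members' windows, and the shares over all promoters were not matched for this. Whether the members hold more matches than such promoters was not tested.

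Levels are FPKM (fragments divided by gene length and a size of the library), so levels of different genes can be set side by side. That size, over the reads recovered from the values, was 0.735 to 0.830 in implanted cGAMP libraries. In the 5 other groups it was 0.964 to 1.15, so implanted cGAMP levels are high relative to reads. Scaling by total reads, given below as an alternative, does not use that size. Differences are on the log2(FPKM + 1) scale with their standard error (SE), and came from 1 limma model of all 18 libraries. A gene was taken to rise, fall or differ when its Benjamini-Hochberg adjusted p over all 13983 tested genes was under 0.05. Members were counted from 137 to 8455 reads per library, out of 9183633 to 12199316 reads. All 9 EC markers searched for were present in every library, with a summed level from 772 to 1907 FPKM. The 7 mural cell markers (pericytes and smooth muscle) summed to 894 to 1009 FPKM in normal PBS libraries, 209 to 287 in MMTV-PyMT PBS and 200 to 239 in implanted PBS libraries. The 7 epithelial markers summed to 439 to 565, 893 to 966 and 393 to 566 FPKM in the same 3 groups. The 6 listed leukocyte markers summed to 16.2 to 67.4 FPKM in the 5 other groups and to 43.3 to 203 FPKM in implanted cGAMP libraries, with the defining Ptprc between 0.156 and 9.73 FPKM over all libraries. The 4 listed fibroblast and adipocyte markers summed to 49.4 to 56.3 FPKM in normal, 83.3 to 134 in MMTV-PyMT and 182 to 212 in implanted PBS libraries, and the 3 listed lymphatic markers to 50.1 to 59.5, 8.79 to 15.1 and 14.6 to 23.5 FPKM. Implanted cGAMP libraries 1 to 3 held 381, 476 and 198 FPKM of fibroblast and adipocyte markers and 51.3, 203 and 43.3 FPKM of leukocyte markers, so the leukocyte maximum came from library 2 alone. With cGAMP the fibroblast and adipocyte sum was 34.7 to 63.2 FPKM in normal and 91.9 to 123 in MMTV-PyMT ECs. In a bulk library, fewer cells of a type and less RNA per cell cannot be told apart. The part of these other cells in the results below was not tested.

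**Figure D1:**
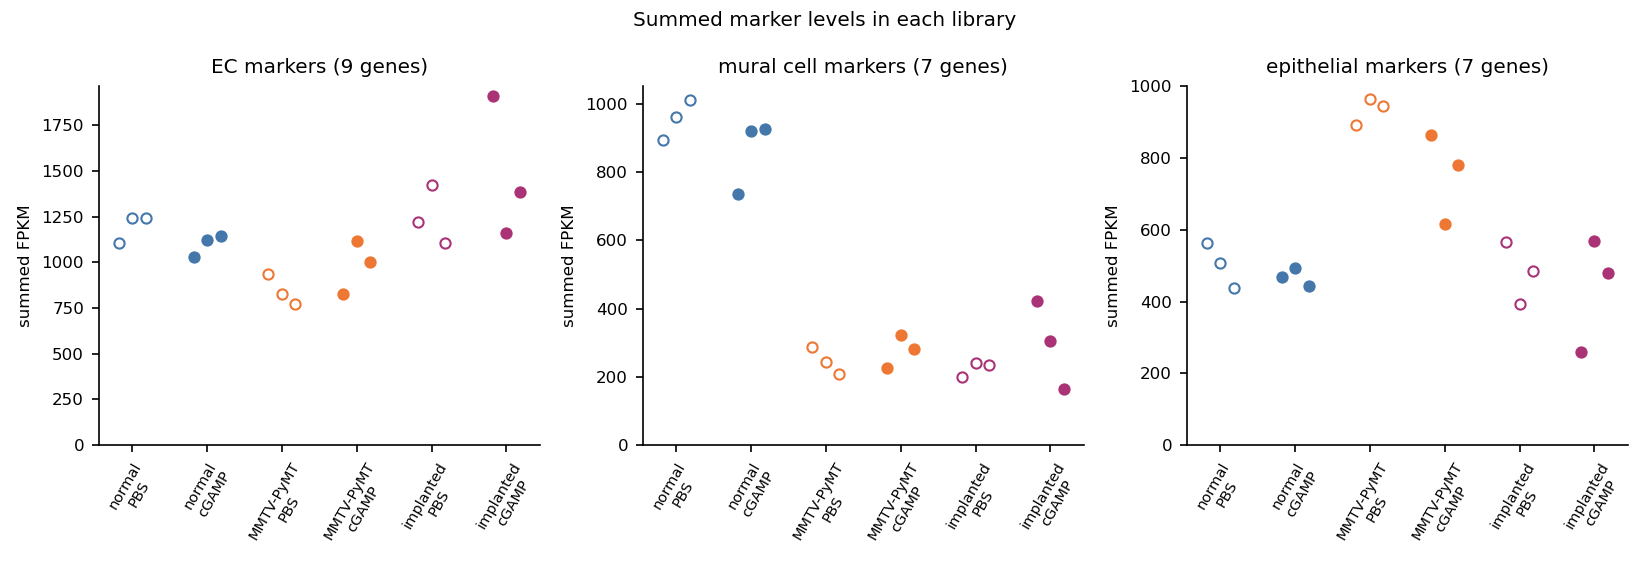
Summed FPKM of EC, mural cell and epithelial markers in each of the 18 libraries, by tissue and treatment (open points PBS, filled points cGAMP, 3 libraries a group in the order 1 to 3). Mural sums are 734 to 1009 FPKM in normal ECs and 166 to 422 in tumour ECs, and epithelial sums are highest in MMTV-PyMT PBS libraries.

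Under PBS, more members differed between the tumours than between either tumour and normal ECs, but not with scaling by the summed EC markers. In implanted ECs 7 of the 8 members were higher than in MMTV-PyMT ECs and 0 were lower (limma), where 20.8% of all tested genes were higher and 24.6% lower. With scaling by the summed EC markers these counts were 4 higher and 1 lower (Hes1, −0.55). Against normal ECs, implanted ECs had 3 members higher (25% of all tested genes) and 2 lower (23.6%). MMTV-PyMT ECs had 0 members higher than normal ECs (29.8% of all tested genes) and 3 lower (26.6%). Scaled by the summed EC markers, 3 members were higher and 2 lower in MMTV-PyMT than in normal ECs. No call changed with that scaling for implanted against normal ECs. The median difference of the 8 members was 0.85 for implanted against MMTV-PyMT, 0.23 for implanted against normal and −0.21 for MMTV-PyMT against normal ECs, with medians over all tested genes of −0.0097, 0.010 and 0.016. These 3 comparisons share their PBS groups.

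After cGAMP, members fell and 0 rose in any tissue. Of the 8, 6 fell in normal ECs, where 18.2% of all tested genes fell and 13.7% rose. In MMTV-PyMT ECs 2 fell, where 4.57% of all tested genes fell and 7.42% rose, and in implanted ECs 4 fell, where 18.8% fell and 20.3% rose. The median change of the members was −0.69 in normal ECs (−0.045 over all tested genes), 0.0088 in the MMTV-PyMT ECs (−0.037) and −0.29 in the implanted ECs (−0.014). The count of members that rose was 0 in each tissue also at an unadjusted p under 0.05 and with voom on reads recovered from the FPKM. The count of 0 held by both of these measures for the members higher in MMTV-PyMT than in normal ECs and lower in implanted than in MMTV-PyMT ECs under PBS too. Scaling by the summed EC markers changed both, to 3 members higher in MMTV-PyMT than in normal ECs (Dll4, 0.46, Notch1, 0.41, and Hes1, 0.38) and the 1 lower member named above.

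Taking only passing differences of at least 2-fold on this scale left fewer members. After cGAMP 1 member remained in normal ECs (Hey1, 3.7% of all tested genes), with 0 in the MMTV-PyMT (2.56%) and 0 in the implanted ECs (7.22%). Under PBS 2 remained for MMTV-PyMT against normal ECs (Jag1 and Jag2, 13.9%), 3 for implanted against normal ECs (Dll4, Jag1 and Notch4, 11.5%) and 3 for implanted against MMTV-PyMT ECs (Dll4, Jag1 and Notch4, 7.33%). For the cGAMP effect 2 remained between MMTV-PyMT and normal ECs (Jag1 and Jag2, 1.75%), 1 between implanted and normal ECs (Hes1, 4.68%) and 0 between the tumours (2.47%). In the 3 comparisons with a count of 0, limma gave 0 members at 2-fold at any p, and voom called 0.

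**Figure D2:**
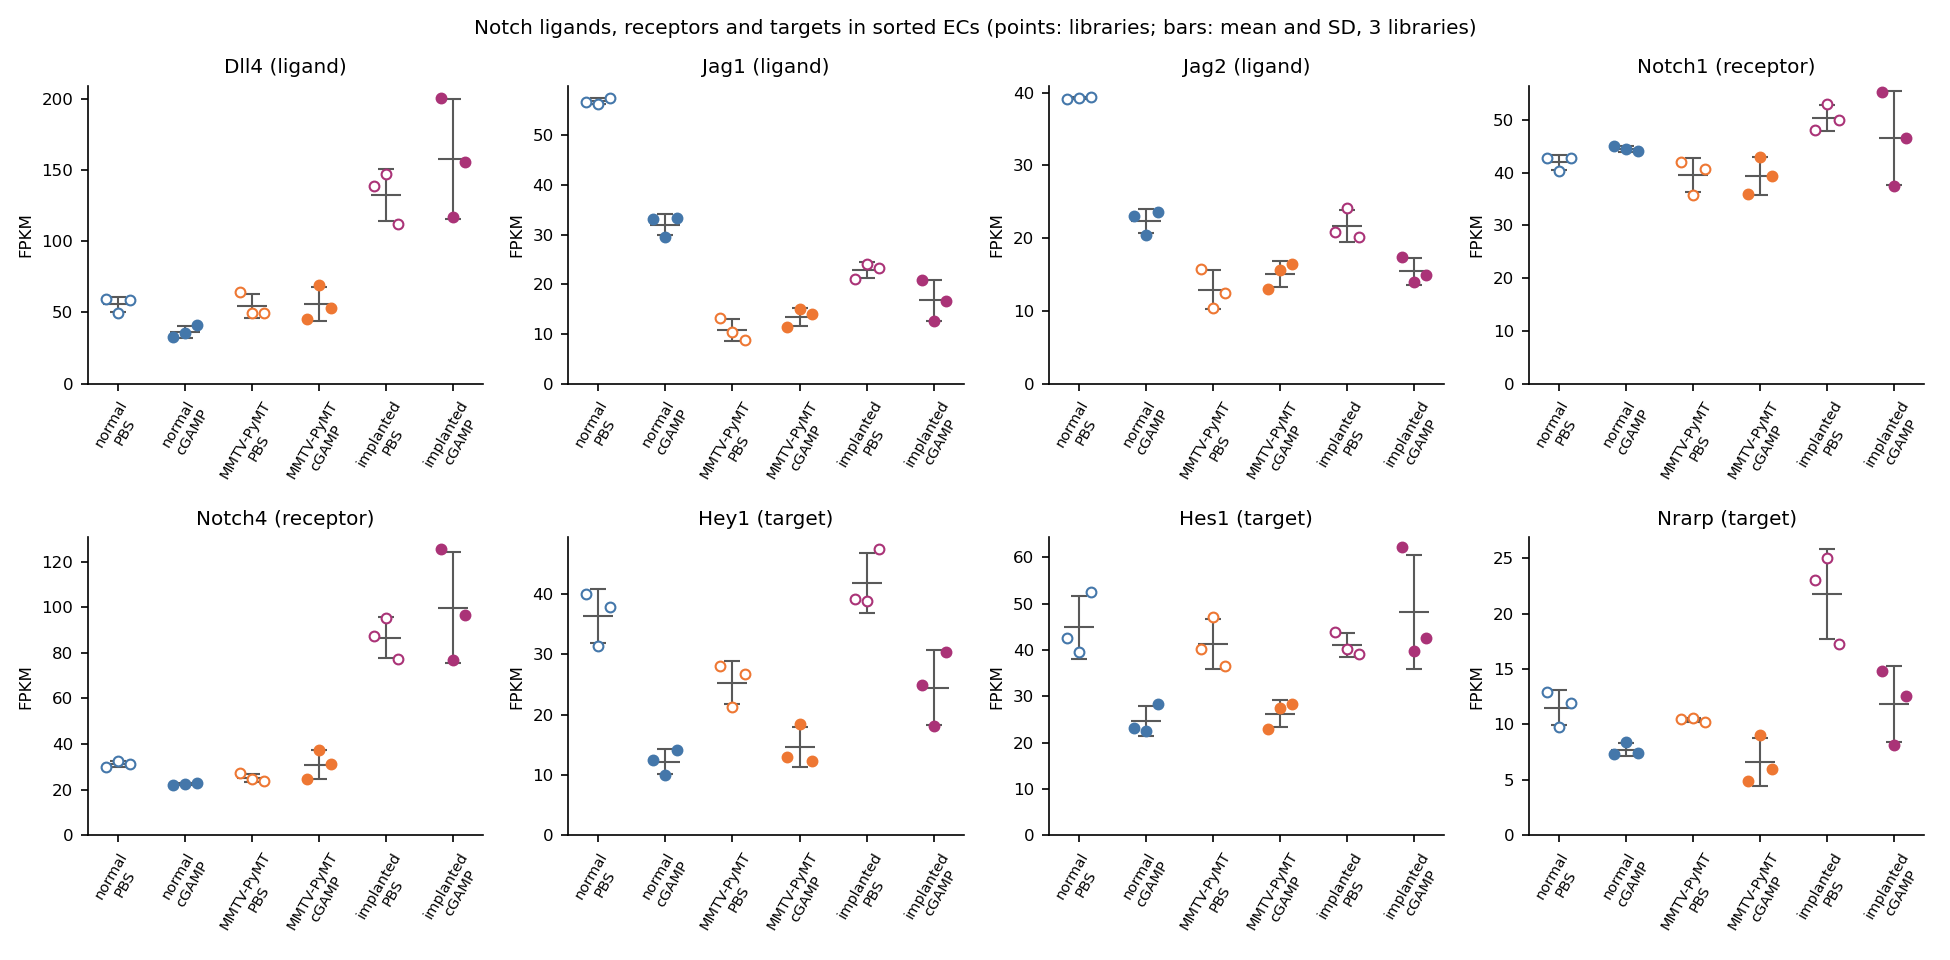
FPKM of the 8 members in each library (points, 3 a group; open for PBS, filled for cGAMP) with the group mean and SD. Dll4 and Notch4 stand highest in both implanted groups, Jag1 and Jag2 in normal PBS libraries, and Hey1 is lower after cGAMP in every tissue.

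Dll4, the Delta-like ligand of sprouting and arterial ECs, was 2.38-fold higher in implanted than in normal ECs under PBS and fell after cGAMP in normal ECs. Its level in PBS libraries 1 to 3 was 59.3, 49.8 and 58.4 FPKM in normal, 64.5, 49.3 and 50.0 FPKM in MMTV-PyMT and 139, 147 and 112 FPKM in implanted ECs. After cGAMP it was 33.0, 35.3 and 41.2 FPKM in normal, 45.1, 69.2 and 53.3 FPKM in MMTV-PyMT and 200.4, 117 and 156 FPKM in implanted ECs. All 6 implanted libraries lay above all 12 others, and the normal cGAMP libraries lay below every other library.

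Under PBS, Dll4 was higher in implanted than in normal ECs by 1.23 ± 0.18 (SE, limma, adjusted p = 4.87e-05) and than in MMTV-PyMT ECs by 1.27 ± 0.18 (limma, adjusted p = 5.69e-05). Between MMTV-PyMT and normal ECs it differed by −0.039 ± 0.18 and the libraries overlapped. Scaled by the summed EC markers, which were lowest in MMTV-PyMT PBS libraries, that difference became 0.46 and passed. After cGAMP, Dll4 fell by 0.60 ± 0.18 in normal ECs (limma, adjusted p = 0.0209), to a mean of 36.5 ± 4.24 FPKM from 55.8 ± 5.21 (SD, n = 3). The fall no longer passed without normal PBS 1 (−0.56), normal PBS 3 (−0.57), normal cGAMP 1 (−0.53) or normal cGAMP 2 (−0.58). The changes in MMTV-PyMT (0.023 ± 0.18) and implanted ECs (0.22 ± 0.18) did not pass, with 95% intervals from −0.37 to 0.42 and from −0.17 to 0.62, and took a negative sign under 3 other scalings.

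Jag1, the Jagged ligand known for opposing Dll4 in sprouting vessels, was lower in both tumours than in normal ECs, 5.30-fold so in MMTV-PyMT ECs. It measured 56.7, 56.3 and 57.4 FPKM in normal, 13.1, 10.3 and 8.73 FPKM in MMTV-PyMT and 21.1, 24.1 and 23.2 FPKM in implanted PBS libraries. After cGAMP it measured 33.2, 29.5 and 33.2 FPKM in normal, 11.4, 15.0 and 14.04 FPKM in MMTV-PyMT and 20.9, 12.7 and 16.7 FPKM in implanted libraries. The 3 PBS groups did not overlap, with normal ECs highest, and the 3 normal PBS libraries were nearly equal.

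The difference from normal ECs under PBS was −2.32 ± 0.15 in MMTV-PyMT (limma, adjusted p = 8.7e-09) and −1.28 ± 0.15 in implanted ECs (limma, adjusted p = 4.16e-06). Both passed in all 26 alternative fits. Implanted exceeded MMTV-PyMT ECs by 1.04 ± 0.15 (limma, adjusted p = 5.69e-05). After cGAMP, Jag1 fell by 0.81 ± 0.15 in normal ECs (limma, adjusted p = 0.00082) and by 0.45 ± 0.15 in implanted ECs (limma, adjusted p = 0.0275), and its change in MMTV-PyMT ECs was 0.31 ± 0.15 (limma, adjusted p = 0.199). The fall in implanted ECs no longer passed without implanted PBS 2 (−0.41), PBS 3 (−0.43), cGAMP 2 (−0.27) or cGAMP 3 (−0.46). The mural marker sum was also higher in normal than in tumour PBS libraries, as given above.

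Jag2, the other Jagged ligand measured, followed Jag1. PBS libraries held 39.1, 39.2 and 39.5 FPKM in normal, 15.8, 10.5 and 12.5 FPKM in MMTV-PyMT and 20.8, 24.2 and 20.1 FPKM in implanted ECs. cGAMP libraries held 23.0, 20.47 and 23.6 FPKM in normal, 12.99, 15.7 and 16.4 FPKM in MMTV-PyMT and 17.5, 13.9 and 14.9 FPKM in implanted ECs. As for Jag1, normal PBS libraries were highest and MMTV-PyMT PBS libraries lowest by their means, and the 3 PBS groups stood apart.

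Jag2 was lower than in normal ECs under PBS, at −1.55 ± 0.13 in MMTV-PyMT (limma, adjusted p = 8.64e-08) and −0.83 ± 0.13 in implanted ECs (limma, adjusted p = 5.27e-05). It was higher in implanted than in MMTV-PyMT ECs by 0.72 ± 0.13 (limma, adjusted p = 0.000291), a difference that fell to 0.19 and no longer passed when scaled by the summed EC markers. cGAMP lowered Jag2 by 0.79 ± 0.13 in normal (limma, adjusted p = 0.000248) and by 0.47 ± 0.13 in implanted ECs (limma, adjusted p = 0.00796), and both falls passed in all 26 alternatives. In MMTV-PyMT ECs the change was 0.21 ± 0.13 (limma, adjusted p = 0.298).

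The 3 ligands therefore made up different mixtures in the 3 tissues. As shares of their summed FPKM under PBS, Dll4 held 36.7 ± 2.12%, Jag1 37.4 ± 1.15% and Jag2 25.9 ± 0.978% in normal ECs (SD, n = 3). The Dll4 share was 69.9 ± 0.711% in MMTV-PyMT and 74.7 ± 2.40% in implanted ECs, and each tumour library exceeded each normal library. The sum itself was 152 ± 5.62 FPKM in normal PBS libraries, 78.2 ± 13.2 in MMTV-PyMT PBS and 177 ± 20.2 in implanted PBS libraries, so a similar share in the tumours went with different totals. With cGAMP, Dll4 made up 40.1 ± 2.75% in normal ECs and 65.9 ± 2.97% in MMTV-PyMT ECs, against 82.8 ± 1.27% in implanted ECs. The Delta-like ligand Dll1 was left out of this sum. Its mean was 27.9 FPKM (normal), 14.4 (MMTV-PyMT) and 14.9 (implanted) with PBS. With cGAMP it was 25.0, 18.3 and 30.1 FPKM. For implanted libraries the Dll1 mean lay below those of Jag1 and Jag2 with PBS and above them with cGAMP. Every Dll4 share would be lower with Dll1 counted. The size of the rise of that share with cGAMP in implanted ECs thus depends on the ligands counted. Shares with Dll1 were not computed. Per library, Dll4 over Jag1 ran from 0.885 to 1.04 in normal PBS, from 4.78 to 5.73 in MMTV-PyMT PBS, from 4.82 to 6.59 in implanted PBS and from 9.22 to 9.61 in implanted cGAMP libraries. These ratios were chosen after the values were seen and carry no test. They do not depend on the scaling of a library. They were not corrected for other cells in a library, whose marker sums, given above, differed between tissues.

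**Figure D3:**
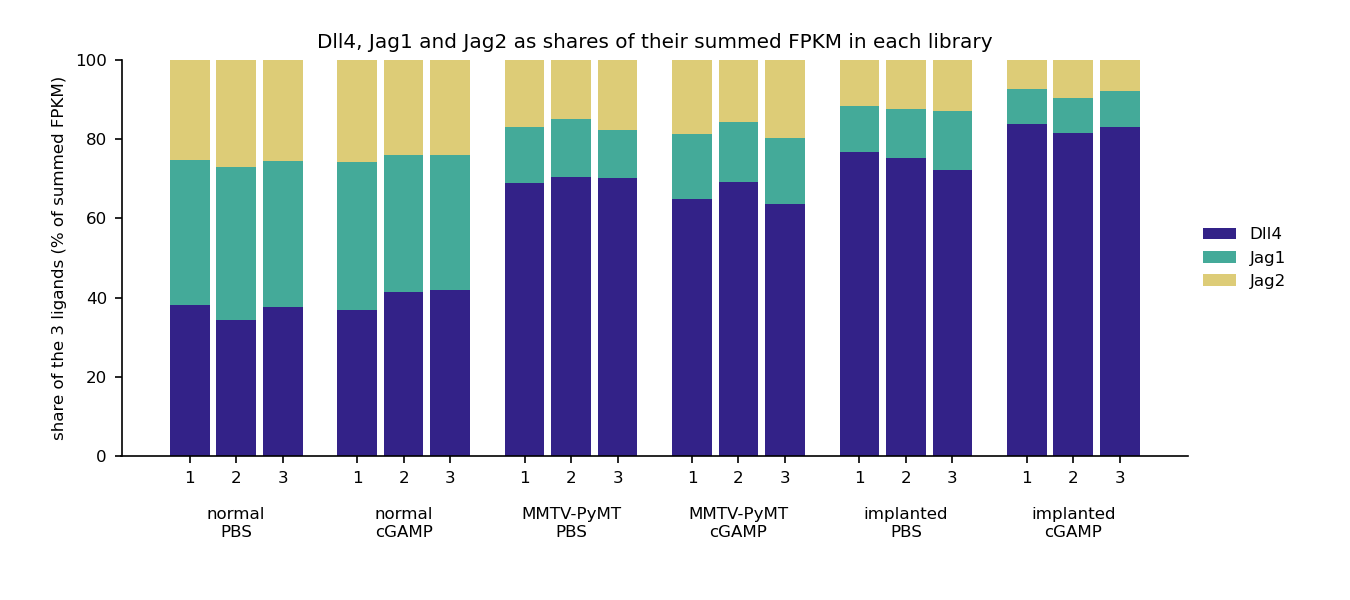
Dll4, Jag1 and Jag2 as percentages of their summed FPKM, 1 bar for each of the 18 libraries. The ligand Dll1 is not in the sum. Dll4 makes up 34.3 to 42.0% in normal libraries, 63.6 to 70.4% in MMTV-PyMT libraries and 72.1 to 83.9% in implanted libraries.

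Notch4, a receptor known chiefly from ECs, was 3.44-fold higher in implanted than in MMTV-PyMT ECs under PBS. It stood at 29.9, 32.5 and 31.4 FPKM in normal, 27.1, 24.6 and 23.8 FPKM in MMTV-PyMT and 87.4, 95.4 and 77.3 FPKM in implanted PBS libraries. With cGAMP it stood at 21.9, 22.6 and 22.9 FPKM in normal, 24.5, 37.3 and 31.2 FPKM in MMTV-PyMT and 125, 77.0 and 96.7 FPKM in implanted libraries. All 6 implanted libraries lay above all 12 others, as for Dll4.

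The PBS difference of Notch4 was 1.74 ± 0.15 between implanted and MMTV-PyMT ECs (limma, adjusted p = 4.84e-07) and 1.44 ± 0.15 between implanted and normal ECs (limma, adjusted p = 1.22e-06), and both passed in all 26 alternatives. MMTV-PyMT differed from normal ECs by −0.30 ± 0.15 (limma, adjusted p = 0.101), and this passed with quantile normalization (−0.42), with scaling by total reads (−0.33) and without implanted cGAMP 1. After cGAMP, Notch4 fell by 0.46 ± 0.15 in normal ECs (limma, adjusted p = 0.03) with no overlap of the libraries. That call was lost when any of the 6 normal libraries was left out, with values between −0.49 and −0.43. In MMTV-PyMT and implanted ECs the changes were 0.27 ± 0.15 and 0.18 ± 0.15, neither passed, and that in implanted ECs took a negative sign under 3 other scalings.

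Notch1, the main Notch receptor of ECs, varied least of the 8 between groups. Its PBS values were 42.7, 40.3 and 42.8 FPKM in normal, 42.0, 35.8 and 40.7 FPKM in MMTV-PyMT and 48.0, 53.0 and 50.0 FPKM in implanted libraries. Its cGAMP values were 45.1, 44.4 and 44.01 FPKM in normal, 35.9, 42.9 and 39.3 FPKM in MMTV-PyMT and 55.4, 37.5 and 46.6 FPKM in implanted libraries. The implanted PBS libraries lay above both other PBS groups and the normal cGAMP libraries above the normal PBS libraries, while the normal and MMTV-PyMT PBS libraries overlapped.

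Notch1 was higher in implanted than in MMTV-PyMT ECs under PBS by 0.34 ± 0.11 (limma, adjusted p = 0.0174). This call was lost without implanted PBS 2 (0.31) or MMTV-PyMT PBS 2 (0.28) and with scaling by total reads (0.19), and the sign turned with scaling by the summed EC markers (−0.20). Implanted against normal ECs differed by 0.26 ± 0.11 (limma, adjusted p = 0.0626), which passed at the same value without implanted cGAMP 1 or 2, and MMTV-PyMT against normal ECs by −0.087 ± 0.11, which passed as 0.41 with the scaling by EC markers. No cGAMP change of Notch1 passed, with values of 0.084 ± 0.11 in normal ECs, −0.0055 ± 0.11 in MMTV-PyMT and −0.13 ± 0.11 in implanted ECs. In implanted ECs it passed as a fall with quantile normalization (−0.46), scaling by total reads (−0.44) and scaling by the summed EC markers (−0.35). Notch4 over Notch1 was 0.747 ± 0.0547 in normal PBS, 0.640 ± 0.0509 in MMTV-PyMT PBS and 1.72 ± 0.153 in implanted PBS libraries (SD, n = 3), so Notch4 exceeded Notch1 per length in implanted ECs and lay below it in the other tissues.

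**Figure D4:**
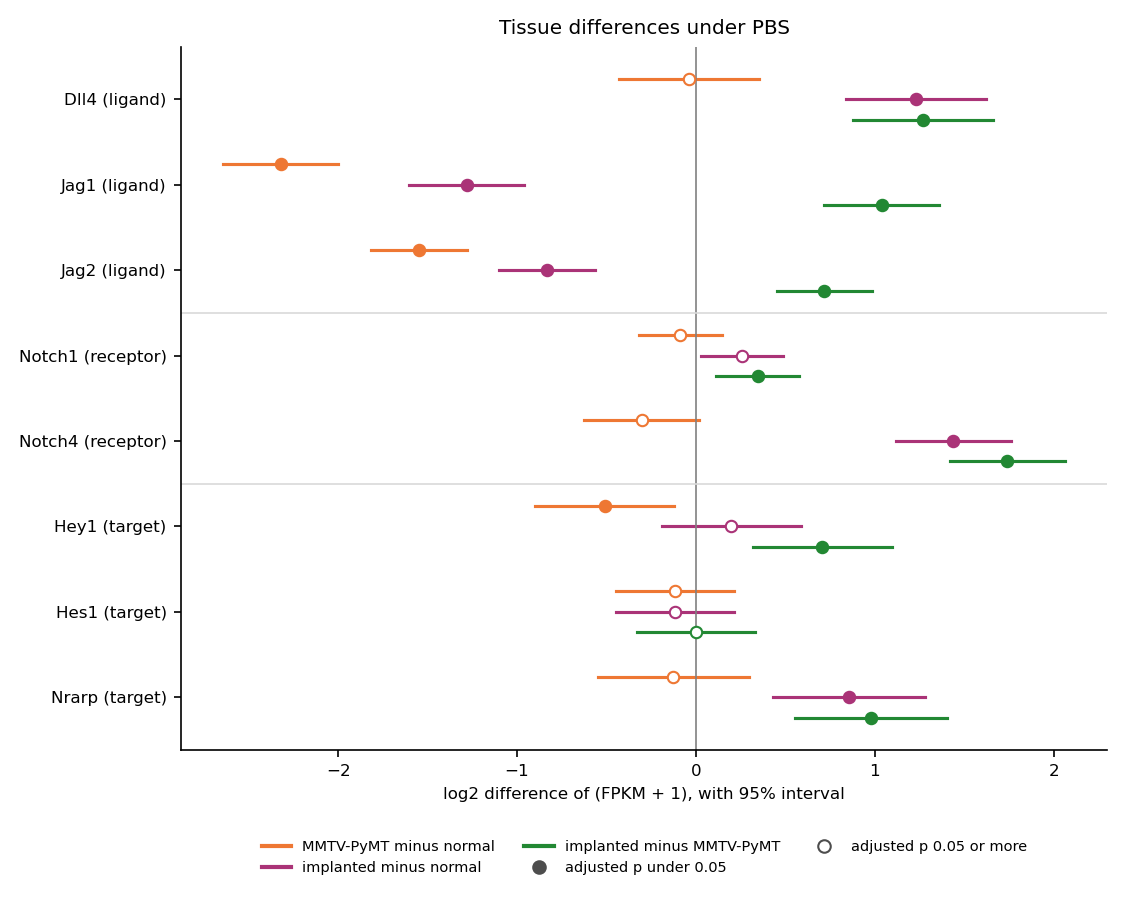
Tissue differences under PBS for each member on the log2(FPKM + 1) scale, with 95% intervals (filled points, adjusted p under 0.05). Jag1 and Jag2 lie left of 0 for both tumours against normal ECs, and Dll4, Notch4 and Nrarp lie right of 0 for implanted ECs against both other tissues.

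Hey1, a repressor of the Hairy family that Notch switches on in arterial ECs, fell after cGAMP in all 3 tissues, and in normal ECs its mean was 66.4% lower. Its level was 39.9, 31.4 and 37.8 FPKM in normal PBS and 12.5, 10.02 and 14.1 FPKM in normal cGAMP libraries. It went from 28.0, 21.2 and 26.7 FPKM to 13.03, 18.4 and 12.3 FPKM in MMTV-PyMT and from 39.1, 38.7 and 47.5 FPKM to 24.9, 18.1 and 30.4 FPKM in implanted ECs. In each tissue every cGAMP library lay below every PBS library.

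The fall of Hey1 was 1.51 ± 0.18 in normal (limma, change −1.51, adjusted p = 2e-05), 0.76 ± 0.18 in MMTV-PyMT (change −0.76, adjusted p = 0.012) and 0.77 ± 0.18 in implanted ECs (change −0.77, adjusted p = 0.00336). The falls in normal and implanted ECs passed in all 26 alternatives. That in MMTV-PyMT ECs was lost without MMTV-PyMT PBS 3 (−0.72) or cGAMP 3 (−0.66). Under PBS, Hey1 was higher in implanted than in MMTV-PyMT ECs by 0.71 ± 0.18 (limma, adjusted p = 0.00533) and lower in MMTV-PyMT than in normal ECs, at −0.51 ± 0.18 (limma, adjusted p = 0.0261). Scaled by the summed EC markers, these differences were 0.16 and −0.02 and did not pass, and the second was also lost without normal PBS 1 (−0.44), normal PBS 3 (−0.48) or MMTV-PyMT PBS 2 (−0.39).

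Hes1, a repressor that many pathways besides Notch control, fell after cGAMP in normal and MMTV-PyMT ECs. In normal ECs it measured 42.5, 39.5 and 52.5 FPKM with PBS and 23.1, 22.4 and 28.4 FPKM with cGAMP. In MMTV-PyMT ECs it measured 40.1, 47.1 and 36.6 FPKM with PBS and 22.9, 27.5 and 28.4 FPKM with cGAMP, and in both tissues the treatments did not overlap. In implanted ECs 43.9, 40.2 and 39.0 FPKM with PBS stood beside 62.2, 39.8 and 42.5 FPKM with cGAMP, where the treatments overlapped and implanted cGAMP 1 was the highest of all 18 libraries.

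The change of Hes1 was −0.83 ± 0.16 in normal (limma, adjusted p = 0.000802) and −0.63 ± 0.16 in MMTV-PyMT ECs (limma, adjusted p = 0.0143), the latter lost without MMTV-PyMT PBS 2 (−0.53). In implanted ECs it was 0.20 ± 0.16 (limma, adjusted p = 0.33), with a 95% interval from −0.13 to 0.53 and a negative sign under 3 other scalings. Hes1 passed in none of the PBS tissue comparisons, which gave −0.12 ± 0.16 for each tumour against normal ECs and −0.00065 ± 0.16 for implanted against MMTV-PyMT ECs. In the last of these it passed as lower (−0.55) with scaling by the summed EC markers. It passed as higher (0.38) in MMTV-PyMT against normal ECs with the same scaling, and as lower (−0.32) in implanted against normal ECs with quantile normalization.

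Nrarp, the feedback inhibitor, had the lowest mean of the members in 5 of the 6 groups and fell in implanted ECs. It measured 12.9, 9.76 and 11.9 FPKM in normal, 10.5, 10.5 and 10.2 FPKM in MMTV-PyMT and 23.0, 25.0 and 17.2 FPKM in implanted PBS libraries. With cGAMP it measured 7.37, 8.40 and 7.41 FPKM in normal, 4.90, 9.06 and 5.96 FPKM in MMTV-PyMT and 14.8, 8.10 and 12.6 FPKM in implanted libraries. In each tissue the cGAMP libraries lay below the PBS libraries.

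Nrarp fell by 0.85 ± 0.20 in implanted ECs (limma, adjusted p = 0.00318), with means of 11.8 ± 3.40 against 21.8 ± 4.03 FPKM (SD, n = 3), and passed there in all 26 alternatives. Its changes of −0.51 ± 0.20 in normal (limma, adjusted p = 0.061) and −0.62 ± 0.20 in MMTV-PyMT ECs (limma, adjusted p = 0.0572) did not pass. Both did with quantile normalization, with scaling by total reads and with voom, and when implanted cGAMP 1 or 2 was left out at unchanged values. The change in normal ECs also passed without MMTV-PyMT cGAMP 1 or 2, and that in MMTV-PyMT ECs also with scaling by the summed EC markers (−0.83), with a mean of at least 5 FPKM, and when MMTV-PyMT cGAMP 2 was left out (−0.83). Under PBS, Nrarp was higher in implanted than in normal ECs by 0.85 ± 0.20 (limma, adjusted p = 0.00219) and than in MMTV-PyMT ECs by 0.98 ± 0.20 (limma, adjusted p = 0.000965). Between MMTV-PyMT and normal ECs it differed by −0.13 ± 0.20.

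**Figure D5:**
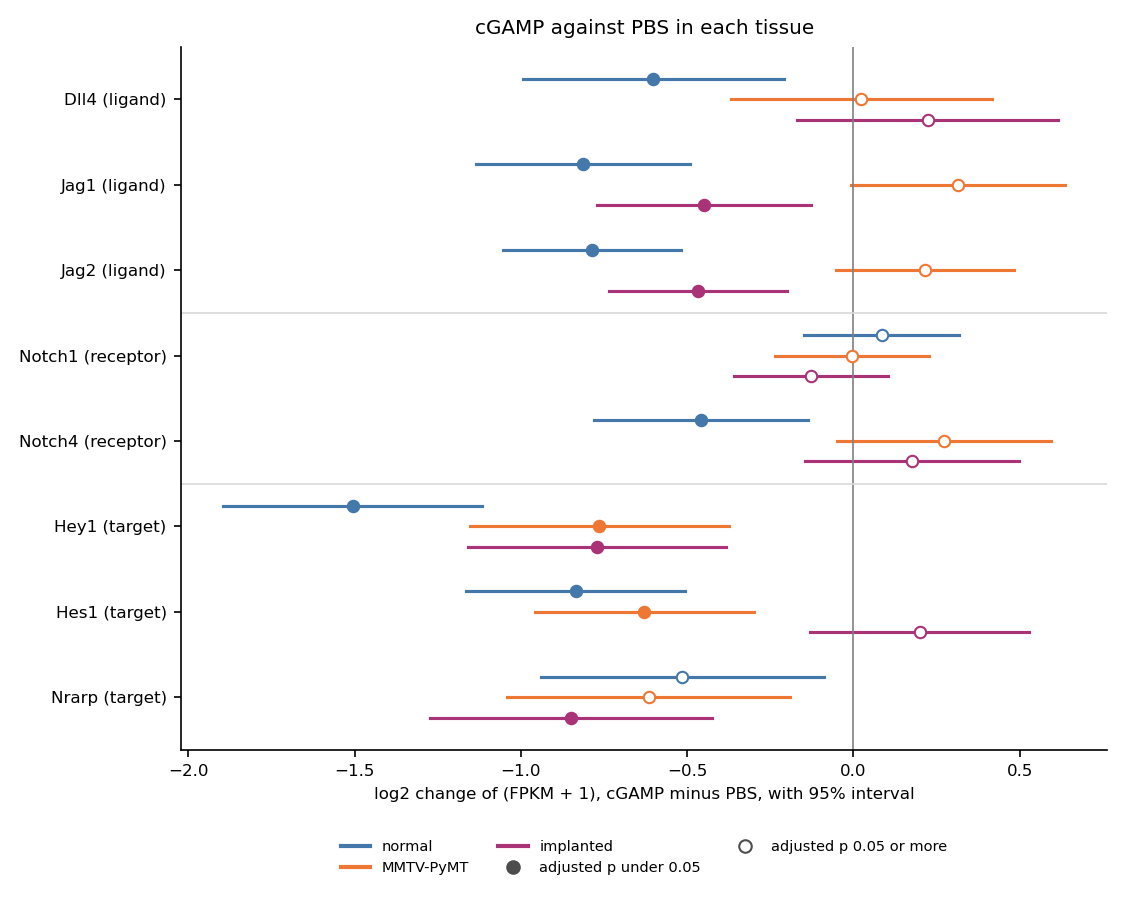
Change after cGAMP for each member in normal, MMTV-PyMT and implanted ECs on the log2(FPKM + 1) scale, with 95% intervals (filled points, adjusted p under 0.05). Hey1 lies left of 0 in all 3 tissues, Jag1 and Jag2 in normal and implanted ECs, and Dll4 and Notch4 in normal ECs.

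Whether a cGAMP effect differed between tissues was tested as a difference of effects, and the 3 tests share groups. Compared with normal ECs, MMTV-PyMT ECs had a higher effect for 3 members (5.48% of all tested genes) and a lower effect for 0 (2.9%). These were Jag1 at 1.13 ± 0.21 (limma, adjusted p = 0.00591), Jag2 at 1.002 ± 0.18 (limma, adjusted p = 0.00433) and Notch4 at 0.73 ± 0.21 (limma, adjusted p = 0.0464). All 3 fell in normal ECs and had changes above 0, which did not pass, in MMTV-PyMT ECs. Jag1 held in all 26 alternatives, and Jag2 was lost with scaling by the summed EC markers (0.69).

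Compared with normal ECs, implanted ECs had a higher effect for 3 members (12.5% of all tested genes) and a lower effect for 0 (6.09%). These were Dll4 at 0.82 ± 0.26 (limma, adjusted p = 0.0376), Notch4 at 0.64 ± 0.21 (limma, adjusted p = 0.0498) and Hes1 at 1.03 ± 0.22 (limma, adjusted p = 0.00376). All 3 fell in normal ECs and had changes above 0, which did not pass, in implanted ECs. In the test of the difference, Hes1 passed in all 26 alternatives. Dll4 was lost in 12 of the 26, among them quantile normalization (0.37), scaling by total reads (0.52), scaling by the summed EC markers (0.48) and leaving out any of 8 libraries, with values from 0.64 to 0.86 there. The 8 libraries were normal PBS 1 and 3, normal cGAMP 1 and 2, implanted PBS 1 and 3 and implanted cGAMP 1 and 3. Both differences of Notch4 lay next to the threshold and were lost in 20 and 19 of the 26 alternatives for implanted and MMTV-PyMT against normal ECs. The first moved to 0.27 with quantile normalization, 0.33 with scaling by total reads and 0.30 with scaling by the summed EC markers, and the second to 0.61 with total reads and 0.41 with EC markers, all lost. For implanted against normal ECs the losses included leaving out any normal library, implanted PBS 1 or 3, implanted cGAMP 1 or 3, any MMTV-PyMT PBS library or MMTV-PyMT cGAMP 3, with values from 0.46 to 0.67. For MMTV-PyMT against normal ECs they included leaving out any normal library, any PBS library of either tumour, implanted cGAMP 3 or MMTV-PyMT cGAMP 2 or 3, with values from 0.59 to 0.78. The count of 0 lower effects in these comparisons was also 0 at an unadjusted p under 0.05 and with voom. For implanted against normal ECs it became 1 with quantile normalization (Notch1, −0.49) and with scaling by total reads (Notch1, −0.52).

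Between the tumours, 1 member had a higher effect in implanted than in MMTV-PyMT ECs (7.34% of all tested genes) and 2 a lower effect (3.72%). Hes1 differed by 0.83 ± 0.22 (limma, adjusted p = 0.0219), Jag1 by −0.76 ± 0.21 (limma, adjusted p = 0.0295) and Jag2 by −0.68 ± 0.18 (limma, adjusted p = 0.0207). Hes1 was lost without implanted PBS 3 (0.79), MMTV-PyMT PBS 2 (0.73) or MMTV-PyMT cGAMP 1 (0.74). Jag2 was lost without implanted PBS 2 (−0.60), MMTV-PyMT PBS 2 (−0.55) or MMTV-PyMT cGAMP 3 (−0.62). Jag1 was lost without implanted PBS 2 or 3, implanted cGAMP 2, MMTV-PyMT PBS 2 or 3, or MMTV-PyMT cGAMP 2 or 3, with values from −0.75 to −0.59. For Hey1 the effects in the tumours differed by −0.0070 ± 0.26, with a 95% interval from −0.56 to 0.54. Its effect in implanted minus that in normal ECs was 0.73 ± 0.26 (limma, adjusted p = 0.0598), which passed only with voom (0.79), with a mean of at least 5 FPKM or without normal cGAMP 3 (0.84), implanted cGAMP 2 (0.93) or MMTV-PyMT cGAMP 2, and its effect in MMTV-PyMT minus that in normal ECs was 0.74 ± 0.26 (limma, adjusted p = 0.0883), which did not pass.

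The other ligands of the family included 1 listed gene, Dll1, a Delta-like ligand of arterial ECs. In implanted ECs Dll1 rose after cGAMP by 0.95 ± 0.16 (limma, adjusted p = 0.000203), from 14.4, 17.2 and 13.2 FPKM to 35.5, 23.0 and 31.9 FPKM. Under PBS it was lower than in normal ECs, at −0.92 ± 0.16 in MMTV-PyMT (limma, adjusted p = 0.000164) and −0.86 ± 0.16 in implanted ECs (limma, adjusted p = 0.000358). Dll1 thus moved opposite to Jag1 and Jag2 in implanted ECs after cGAMP, and in their direction between each tumour and normal ECs. Between implanted and MMTV-PyMT ECs under PBS, where Jag1 and Jag2 were higher in implanted ECs, Dll1 differed by 0.061 and did not pass.

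Of the 2 other receptors, Notch3, the receptor of mural cells, was 132, 127 and 139 FPKM in normal, 29.7, 27.1 and 23.4 FPKM in MMTV-PyMT and 21.8, 23.1 and 23.5 FPKM in implanted PBS libraries. It was lower than in normal ECs, at −2.28 ± 0.21 in MMTV-PyMT (limma, adjusted p = 2.82e-07) and −2.49 ± 0.21 in implanted ECs (limma, adjusted p = 1.03e-07), and moved with the mural marker sums given above. Notch2 was higher in MMTV-PyMT than in normal ECs by 0.41 ± 0.13 (limma, adjusted p = 0.011) and lower in implanted than in MMTV-PyMT ECs, at −0.73 ± 0.13 (limma, adjusted p = 0.000257). The first of these was lost without MMTV-PyMT PBS 3 (0.34). No cGAMP change of either receptor passed.

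Of 7 further Hes and Hey genes, 3 were listed. Hes6, a Hes family member known from differentiating neurons and muscle, fell after cGAMP in all 3 tissues, by 0.69 ± 0.12 in normal (limma, adjusted p = 0.000494), by 0.52 ± 0.12 in MMTV-PyMT (limma, adjusted p = 0.0103) and by 0.82 ± 0.12 in implanted ECs (limma, adjusted p = 5.51e-05). The fall in MMTV-PyMT ECs was lost without MMTV-PyMT PBS 2 (−0.44) or cGAMP 2 (−0.41). Hey2, the arterial partner of Hey1, fell in normal ECs by 0.86 ± 0.16 (limma, adjusted p = 0.00082), from a mean of 3.54 to 1.502 FPKM. In tumour PBS libraries it was near the floor, at means of 0.329 and 0.384 FPKM. In implanted ECs it passed as higher after cGAMP (0.42 ± 0.16, limma, adjusted p = 0.0488), with overlapping libraries, a mean of 0.885 FPKM and a pass in only 7 of 25 alternatives, lost among others without any implanted PBS library or without implanted cGAMP 1 (0.25) or 2 (0.43). Heyl, known from mural cells, was lower in MMTV-PyMT (−1.45 ± 0.22, limma, adjusted p = 4.32e-05) and implanted ECs (−1.49 ± 0.22, limma, adjusted p = 4.19e-05) than in normal ECs under PBS.

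For the 3 longer lists below, the background after cGAMP is the share of all tested genes that rose or fell, 13.7% and 18.2% in normal, 7.42% and 4.57% in MMTV-PyMT, and 20.3% and 18.8% in implanted ECs, with medians of −0.045, −0.037 and −0.014. Under PBS, 29.8% of all tested genes were higher and 26.6% lower in MMTV-PyMT than in normal ECs, 25% and 23.6% in implanted than in normal ECs, and 20.8% and 24.6% in implanted than in MMTV-PyMT ECs.

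Among 20 genes that process ligands and receptors, 19 were tested. In normal ECs cGAMP raised 1 and lowered 7, in MMTV-PyMT ECs it raised 1 and lowered 1, and in implanted ECs it raised 6 and lowered 5, with medians of −0.15, −0.10 and 0.02. Neurl3, an E3 ubiquitin ligase listed here by its Neuralized family, rose in all 3 tissues and was the 1 gene raised in normal and in MMTV-PyMT ECs. Whether Neurl3 acts on Notch ligands was not tested. It went from 4.16, 5.40 and 4.504 FPKM to 32.2, 34.0 and 20.7 FPKM in normal, from 3.86, 4.13 and 2.54 FPKM to 22.2, 34.0 and 24.4 FPKM in MMTV-PyMT and from 18.5, 16.7 and 13.7 FPKM to 172, 90.1 and 104 FPKM in implanted ECs. The rises were 2.37 ± 0.24, 2.62 ± 0.24 and 2.78 ± 0.24 (limma, adjusted p = 2.45e-06, 7.41e-07 and 1.31e-07), and cGAMP libraries stood above PBS libraries in each tissue. Lfng, a Fringe enzyme that adds sugars to Notch receptors and shifts their response to ligands, fell in normal ECs by 1.80 ± 0.20 (limma, adjusted p = 6.49e-06), from a mean of 35.1 to 9.39 FPKM. Lfng was lower under PBS in MMTV-PyMT (−2.36 ± 0.20, limma, adjusted p = 1.08e-07) and implanted ECs (−2.07 ± 0.20, limma, adjusted p = 3.95e-07) than in normal ECs. Mfng, another Fringe enzyme, was higher in implanted than in MMTV-PyMT ECs by 1.28 ± 0.13 (limma, adjusted p = 1.6e-06). Neurl1b, a second Neuralized ligase, fell after cGAMP in implanted ECs by 1.62 ± 0.16 (limma, adjusted p = 1.12e-06). Between tissues under PBS, 6 of the 19 were higher and 6 lower in MMTV-PyMT than in normal ECs, 7 higher and 3 lower in implanted than in normal ECs, and 6 higher and 3 lower in implanted than in MMTV-PyMT ECs.

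Among 18 genes of the nuclear complex and its regulators, 17 were tested. cGAMP raised 2 and lowered 1 in normal ECs, and raised 6 and lowered 3 in implanted ECs, with medians of 0.065 and 0.17. In MMTV-PyMT ECs 0 passed with limma or voom, 2 were higher and 2 lower at an unadjusted p under 0.05, and the median was −0.097. In implanted ECs Kat2b, an acetyltransferase, rose by 1.07 ± 0.11 (limma, adjusted p = 8.1e-07) and Maml2, a Mastermind coactivator that binds the Notch and RBPJ complex, by 1.0002 ± 0.13 (limma, adjusted p = 2.21e-05). Dtx1, a Deltex ubiquitin ligase known as a Notch target, fell in normal ECs by 0.89 ± 0.17 (limma, adjusted p = 0.000922). Under PBS, 4 of the 17 were higher and 5 lower in MMTV-PyMT than in normal ECs, 3 higher and 8 lower in implanted than in normal ECs, and 1 higher and 5 lower in implanted than in MMTV-PyMT ECs.

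All 10 genes of a list of arterial and vessel genes linked to Notch were tested. The list was not built for 1 direction of change, so its counts and medians do not measure Notch output. In normal ECs 5 were lower after cGAMP, in MMTV-PyMT ECs 2 were higher and in implanted ECs 4 were lower, with 0 passing in the other direction with limma or voom and medians of −0.60, 0.17 and −0.27. At an unadjusted p under 0.05 those opposite counts were 0, 0 and 2. Gja5, an arterial gap junction protein, was 35.0, 30.2 and 33.1 FPKM in normal PBS and 8.51, 4.90 and 5.25 FPKM in normal cGAMP libraries, a fall of 2.26 ± 0.16 (limma, adjusted p = 6.87e-08). It fell in implanted ECs by 0.78 ± 0.16 (limma, adjusted p = 0.00119), and in MMTV-PyMT PBS libraries it stood at a mean of 1.17 FPKM. Under PBS 7 of the 10 were higher and 1 lower in implanted than in MMTV-PyMT ECs (median 1.40), 5 were higher and 4 lower in implanted than in normal ECs (median 0.49), and 1 was higher and 6 lower in MMTV-PyMT than in normal ECs (median −0.91). Cxcr4, a chemokine receptor of sprouting ECs, led with Gja5, at 157, 165 and 143 FPKM in implanted against 28.2, 27.4 and 28.1 FPKM in MMTV-PyMT PBS libraries (2.43 ± 0.22, limma, adjusted p = 5.62e-07). Bmx, an arterial kinase, was lower than in normal ECs, at −2.54 ± 0.14 in MMTV-PyMT (limma, adjusted p = 1.77e-09) and −2.95 ± 0.14 in implanted ECs (limma, adjusted p = 2.99e-10). The 2 rises in MMTV-PyMT ECs were Flt1 (0.63 ± 0.18, limma, adjusted p = 0.0345), whose libraries overlapped, and Flt4 (0.54 ± 0.17, limma, adjusted p = 0.0465), both receptors of vascular growth factors, and they passed in 21 and 10 of 26 alternatives. Both were lost without MMTV-PyMT PBS 2, PBS 3, cGAMP 2 or cGAMP 3, at 0.48 to 0.57 for Flt1 and 0.43 to 0.54 for Flt4, and Flt4 was also lost, at an unchanged value, without any normal library, implanted PBS 1 or implanted cGAMP 3.

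The members fell into patterns that can be described by the correlation of log2(FPKM + 1) over the 18 libraries, which share their groups and their normalization. Dll4 and Notch4 had a Pearson r of 0.98 (Spearman rho 0.94), and 0.89 for deviations from the group means. Jag1 and Jag2 had 0.97 (Spearman rho 0.96), and 0.75 for deviations from the group means. By those deviations Jag1 had higher values with Notch4 (0.82) and Notch1 (0.80) than with Jag2. Every pair of members was positive by that measure, from 0.19 for Hey1 and Hes1 to 0.89 for Dll4 and Notch4. The likeness of Dll4 and Notch4 was thus also seen within groups. Dll4 and Jag1 had −0.15 over the libraries and 0.80 for deviations from the group means, so they differed between groups but moved together between libraries of a group. The genes most like each member out of all tested genes were Notch4, Hlx and Sipa1 for Dll4 (r from 0.97 to 0.98) and Sipa1, Prss23 and Pofut2 for Notch4 (r 0.99 each). For Jag1 they were Arhgef10, St6galnac3 and Thbd (r 0.98 to 0.99), and for Jag2 Arhgef10, Acvrl1 and Smarca2 (r 0.97 to 0.98). Hey1 was most like Myct1, Zbtb40 and Pex6 (r 0.88 to 0.93), Hes1 like Glt8d1, Mapk3 and Glg1 (r 0.87 to 0.92), Nrarp like Castor2, Sox18 and Hic1 (r 0.89 each) and Notch1 like Fam43a, Sh2b3 and AC137513.1 (r 0.85 to 0.92).

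The implanted cGAMP libraries were spread widely. The coefficient of variation of Dll4, Jag1, Notch4, Hey1, Hes1 and Nrarp there lay between 24.4% and 28.8%. Implanted cGAMP 1 was highest and implanted cGAMP 2 lowest for 7 of the 8 members, and the summed EC markers had the same order, at 1907, 1159 and 1382 FPKM in libraries 1 to 3. For Hey1 library 3 was highest. The part of this spread in the results was not tested.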

How the data were processed

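Per the study's methods and the labels, sorted ECs gave directional libraries (NEBNext Ultra II), checked with FastQC, aligned to mm10 with STAR 2.7 and counted with HTSeq. The annotation, the strand setting and the FPKM formula were not given in the sources used here. The authors deposited 1 table of FPKM values, with no value at 0. Whole reads were recovered for 16244 of 16248 genes (99.98%, tolerance 0.05) from GENCODE M21 lengths or a scan of lengths. Reads per library spanned a 1.33-fold range and cover counting error only. The 18 replicate pairs differed beyond counting noise (chi-square per degree of freedom from 4.09 to 31.56), so none was merged.

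Values were transformed to log2(FPKM + 1), which understates changes of low genes. Genes with at least 1 FPKM in at least 3 of 18 libraries were fitted in limma 3.58.1 (R 4.3.3, trend, 2-sided, 1 mean per group, Benjamini-Hochberg over all tested genes), after a test on simulated data. Members, lists and motifs were chosen with earlier results of these data known. All members are named, and other pathway genes only among the largest 2 passing changes of a list and comparison. A gene that this rule names is not reported here. Python 3.11.15 made the other values. Alternatives were another pseudocount (0.1), 2 filters, a 2-fold limit, quantile normalization, scaling by total reads, a replicate block and leaving out each library. Added after seeing the data were voom on recovered reads and scaling by summed EC markers.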

Additional observations from a re-analysis of the deposited data

Results flagged for a closer look

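The results below stand out because the effect of cGAMP on a member differed between tissues in the test of the difference itself (limma, values on the log2(FPKM + 1) scale). Against normal ECs, the effect in MMTV-PyMT ECs was higher by 1.13 for Jag1, by 1.002 for Jag2 and by 0.73 for Notch4. Against normal ECs, the effect in implanted ECs was higher by 0.82 for Dll4, by 0.64 for Notch4 and by 1.03 for Hes1. In both comparisons these members fell in normal ECs, and their changes in the tumour did not pass. Between the tumours, the effect in implanted minus MMTV-PyMT ECs was −0.76 for Jag1, −0.68 for Jag2 and 0.83 for Hes1. Of the 26 alternatives, the difference from normal ECs was lost in 12 for Dll4 and 20 for Notch4 in implanted ECs and in 19 for Notch4 and 1 for Jag2 in MMTV-PyMT ECs, while Hes1 in implanted and Jag1 in MMTV-PyMT ECs passed in all 26. Between the tumours it was lost in 7 for Jag1, 3 for Jag2 and 3 for Hes1. Groups of 3 libraries were too small for a test of single outlying libraries.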

How the results depend on the processing

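Of 72 member results, 36 passed, and 20 of these passed in all 26 alternatives (18 of which leave out 1 library). Of the other 36, 12 passed in some alternative. The edgeR alternative was not run, since the table holds FPKM, and voom took its place. With a limit of at least 2-fold, the count of members passing was 1 for cGAMP in normal ECs, 0 in each tumour, 0 and 1 for the difference of effects of implanted from MMTV-PyMT and from normal ECs, and 3 each for implanted against normal and against MMTV-PyMT ECs under PBS. Leaving out 1 library gave, for cGAMP, 4 to 7 members in normal, 1 to 3 in MMTV-PyMT and 3 to 4 in implanted ECs. It gave 0 to 3, 1 to 4 and 2 to 3 for the differences of effects (implanted from MMTV-PyMT, implanted from normal, MMTV-PyMT from normal), and 2 to 4, 5 to 6 and 6 to 7 under PBS (MMTV-PyMT from normal, implanted from normal, implanted from MMTV-PyMT). No pairing of libraries by replicate number was seen. Of 45 same-number pairs, with r from −0.35 to 0.29, 8 exceeded 0.1, and in 0 of 15 pairs of groups did all. With 3 libraries a group, this cannot exclude a batch shared by libraries of the same number. With a replicate block the difference of effects of implanted from normal ECs had 1 member passing instead of 3 (Dll4 and Notch4 were lost), Notch4 was also lost for MMTV-PyMT from normal, and the other counts stayed within 1.5 times.

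With scaling by total reads the median of all genes moved to −0.14, −0.25, −0.10, −0.19, −0.13 and −0.13 for cGAMP in the tumours (MMTV-PyMT, then implanted), the differences of effects of implanted from MMTV-PyMT and from normal, and implanted from normal and from MMTV-PyMT under PBS. With scaling by summed EC markers it moved to 0.41 and −0.45 for MMTV-PyMT from normal and implanted from MMTV-PyMT under PBS, −0.21 and −0.17 for cGAMP in the tumours, and −0.21 and −0.25 for the differences from normal. This scaling left 1 member each for the differences of effects of implanted and MMTV-PyMT from normal, and gave 5 (3 higher, 2 lower) for MMTV-PyMT from normal under PBS. It turned the sign there for Dll4 (0.46), Notch1 (0.41), Notch4 (0.19), Hes1 (0.38) and Nrarp (0.34), for Notch1 in implanted from MMTV-PyMT (−0.20), and for the differences of effects of Jag2 in implanted from normal (−0.0025) and Hes1 in MMTV-PyMT from normal (−0.12). cGAMP values with quantile normalization, total reads and EC markers were −0.049, −0.11 and −0.19 for Dll4 in MMTV-PyMT, −0.30, −0.093 and −0.00088 for Dll4, −0.25, −0.14 and −0.046 for Notch4 and −0.13, −0.11 and −0.022 for Hes1 in implanted ECs. The difference of effects between tumours became −0.25 for Dll4 with quantile normalization and 0.0071 (pseudocount 0.1) and 0.016 (voom) for Hey1, and Hes1 in implanted from MMTV-PyMT under PBS became 0.0011 with voom. Leaving out 1 library turned the sign of results that had not passed. For cGAMP in MMTV-PyMT ECs the ranges were −0.14 to 0.16 for Dll4 and −0.072 to 0.058 for Notch1, and in implanted ECs −0.26 to 0.015 for Notch1 and −0.0014 to 0.35 for Notch4. For the difference of effects between the tumours they were −0.25 to 0.020 for Notch1, −0.27 to 0.075 for Notch4 and −0.17 to 0.19 for Hey1, and between MMTV-PyMT and normal −0.32 to 0.067 for Nrarp. Under PBS they were −0.16 to 0.028 for Dll4 and −0.21 to 0.00078 for Hes1 in MMTV-PyMT from normal, −0.20 to 0.00013 for Hes1 in implanted from normal and −0.082 to 0.096 for Hes1 in implanted from MMTV-PyMT. None of these sign changes but that of Notch1 in implanted from MMTV-PyMT concerned a result that had passed. The cause was not tested.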
